A study of Mus musculus with 2 samples.

Results

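The 45 genes described here are listed members of the nuclear receptor family, out of 52403 annotated genes in the count tables. They were listed by gene symbol and no measured value entered the rule, but earlier results of these data were known at the choice. They were compared between 2 liver RNA libraries, 1 from wild-type (WT) C57BL/6 mice and 1 from Gbp5-/- mice (KO) of the same background. The mice of both groups were 9 weeks old and had received D-galactosamine (800 µg per g body weight) with lipopolysaccharide (100 ng per g) for 6 h. Hepatocytes given D-galactosamine run short of uridine nucleotides, which makes the liver very sensitive to bacterial endotoxin, of which lipopolysaccharide is the purified form. Gbp5 encodes an interferon-inducible guanylate-binding GTPase. Each library was a pool of RNA from 4 livers, so there was 1 library per group, no replicate check and no p-value. No untreated library was analysed here, and the knockout's construction and the sex of the mice are not given in the labels.

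Nuclear receptors are transcription factors that bind DNA through zinc fingers, and most of them change their activity when a small lipophilic ligand enters the ligand-binding domain. Many bind as heterodimers with a retinoid X receptor (RXR), recruit corepressors without ligand and coactivators with it. In hepatocytes they govern bile acid, lipid, drug and hormone metabolism, and several dampen inflammatory transcription in macrophages. Endotoxin is known to lower the RNA of many of them in liver, which cannot be examined here without an untreated group.

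The libraries held 19864848 (WT) and 15750875 (KO) reads assigned to genes. Levels are given in CPM, a gene's reads scaled to a common library total, and the limit set by finding no read was 3 reads, equal to 0.151 CPM in WT and 0.190 CPM in KO. Ratios are KO to WT ratios of CPM with 95% Clopper-Pearson intervals, which cover counting error only and not variation between mice or pools. Gbp5 itself was 2.92-fold lower in the library labelled KO (161.6 and 55.4 CPM). Hepatocyte markers were abundant in both libraries, with a summed level of 75362 CPM in WT and 114051 CPM in KO over 12 genes. Of these 12, 10 were higher in KO, and without Alb the sums were 36978 and 44801 CPM. The libraries also differed in markers of other cells. The 11 Kupffer cell and macrophage markers were all lower in KO (summed 1546 and 642 CPM), with none at 0, and all 10 T and NK cell markers were lower (55.1 and 27.4 CPM). Of 10 endothelial markers, 8 were lower (1043 and 720 CPM, or 678.3 and 548.4 CPM without Stab1). Of 10 cholangiocyte markers, 8 were higher (172.6 and 307.7 CPM), and so were 8 of 12 intestinal and gastric markers (55.5 and 357.8 CPM). Dmbt1 alone made up 274.2 CPM of the latter sum, and without it the sums were 54.5 and 83.6 CPM. Cdx2, Muc2 and Gkn2 of that list had no read in either library. In such bulk RNA, fewer cells of a type and less RNA per cell cannot be told apart.

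Of the 45 receptor genes, 35 reached a mean of 1 CPM over both libraries and 10 did not. Together the 45 genes held 33105 WT and 23302 KO reads (1667 and 1479 CPM), so that the sum was 1.13-fold lower in KO. Hnf4a alone, the receptor that maintains hepatocyte identity, made up 25.4% of the family's reads in WT and 31.2% in KO. Without it the sum was 1.22-fold lower in KO (1243 and 1018 CPM). Per exon length, as FPKM, the order of the 3 highest receptors was the same in both libraries. Hnf4a had 87.7 FPKM in WT and 95.5 in KO, the early response receptor Nr4a1 had 85.1 and 64.7, and the oxysterol receptor Nr1h3 had 66.1 and 49.96. Only 27 receptors reached 1 FPKM in both libraries.

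**Figure D1:**
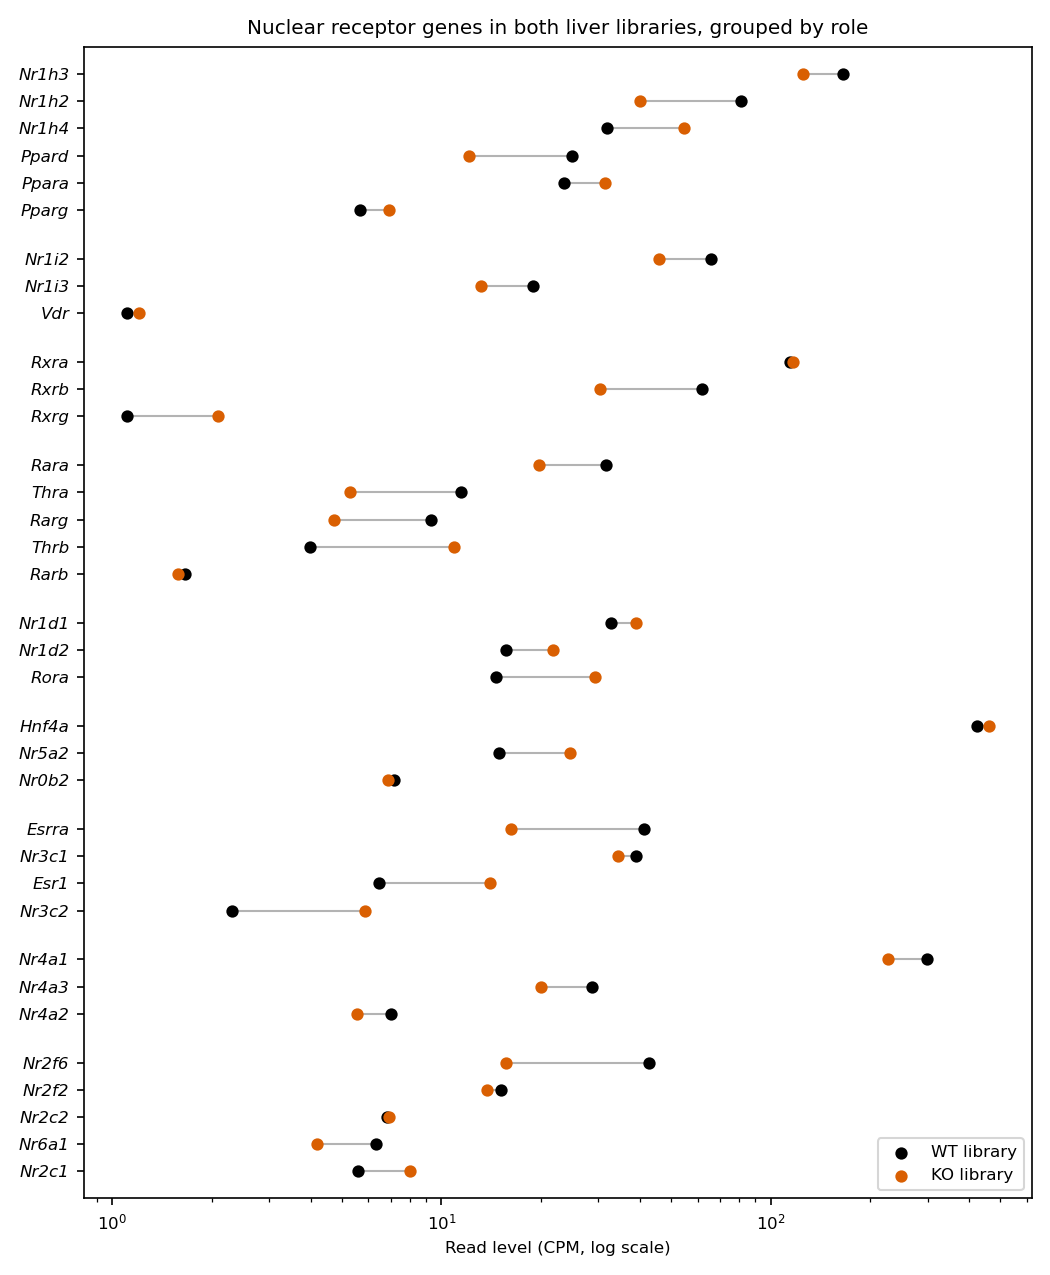
Read level in CPM on a log axis for the 35 nuclear receptor genes at a mean of 1 CPM or more, with the WT library in black and the KO library in orange, grouped by role. Hnf4a and Nr4a1 lie far above most receptors in both libraries, and the grey line of each gene joins its 2 values.

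Of the 35 receptors, 16 were higher and 19 lower in KO, while 45.5% of all genes were higher and 54.5% lower. By a rule of size, 6 of the 35 were at least 2-fold lower in KO (17.1%, against 11.8% of all 13446 genes at this level). These were Thra, Ppard, Nr1h2, Rxrb, Nr2f6 and Esrra. In the other direction, Thrb, Esr1 and Nr3c2 were at least 2-fold higher (8.57%, against 3.28% of all genes). At 1.5-fold, 9 were lower (25.7%, against 24.3%) and 7 higher (20%, against 10.9%). The family's median log2 ratio was -0.07, the same as the median of all genes. Scaling by TMM, or by protein-coding reads alone, turned the 2-fold split of 6 lower and 3 higher into 5 and 4, because Nr1h2 and Rora lie at the 2-fold line. The counting interval lay wholly below 1 for 15 receptors and wholly above it for 12, and it spanned 1 for 8. The like share over all genes was not computed, so these counts show nothing particular to the family.

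**Figure D2:**
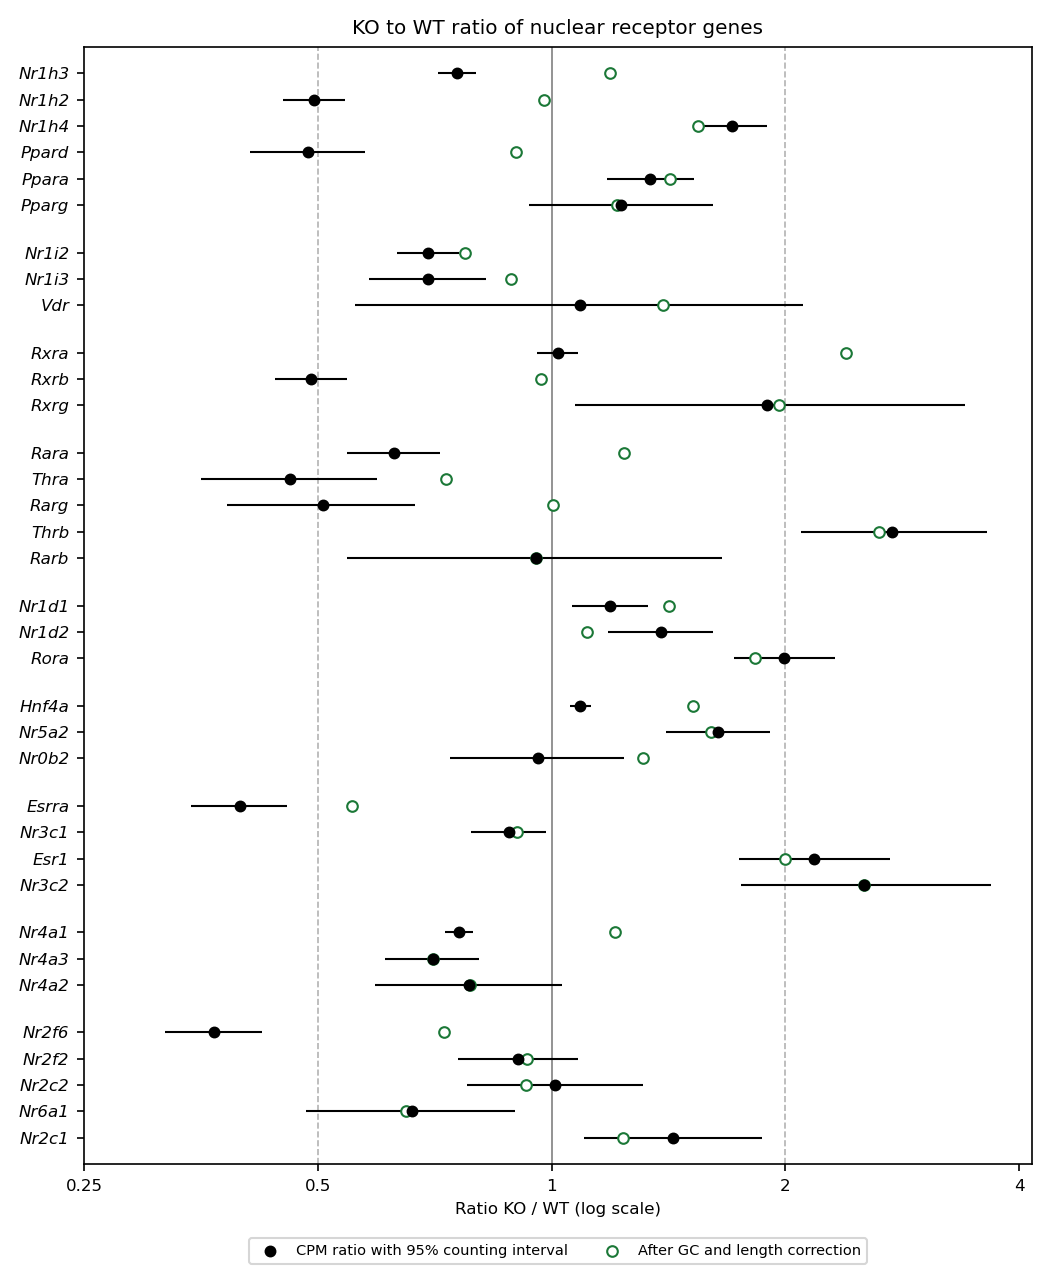
KO to WT ratio of CPM for the 35 receptor genes (black, with 95% counting intervals) on a log axis, and the same ratio after correction for GC content and exon length (open green circles), in the same grouping by role. Dashed lines mark 2-fold; 6 black points lie left of 0.5, and no green circle does.

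The direction went with the base composition of the transcript. Over the 35 receptors, Spearman's rho between log2 ratio and GC content of the exons was -0.63, and over all 13446 genes it was -0.46. These are descriptions across genes measured in the same 2 libraries. Among the 12 receptors of highest GC content (55.6% to 64.5%), 10 were lower in KO, with a median log2 ratio of -0.83, beside -0.70 for the 2225 genes of all kinds in that range. Among the 12 of lowest GC content (41.1% to 48.1%), 9 were higher, with a median of 0.49, beside 0.14 for 4576 genes. A correction took from each gene the median log2 ratio of genes of like GC content and length, which also removes any true difference that goes with those properties. After it, no receptor was 2-fold lower (5.82% of all genes were) and 3 were 2-fold higher, namely Thrb, Nr3c2 and Rxra (8.57%, against 3.83% of all genes). At 1.5-fold, 2 receptors were lower after the correction (5.71%, against 16.2%), Esrra and Nr6a1, and 9 were higher (25.7%, against 11.6%). The corrected median of the family was 0.25, with 20 receptors higher and 15 lower, beside 50% and 49.9% of all genes. Corrected values are given below for the 35 receptors, and for other genes where the correction turned the direction or took a gene below 2-fold. The part of GC content in each difference was not tested.

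**Figure D3:**
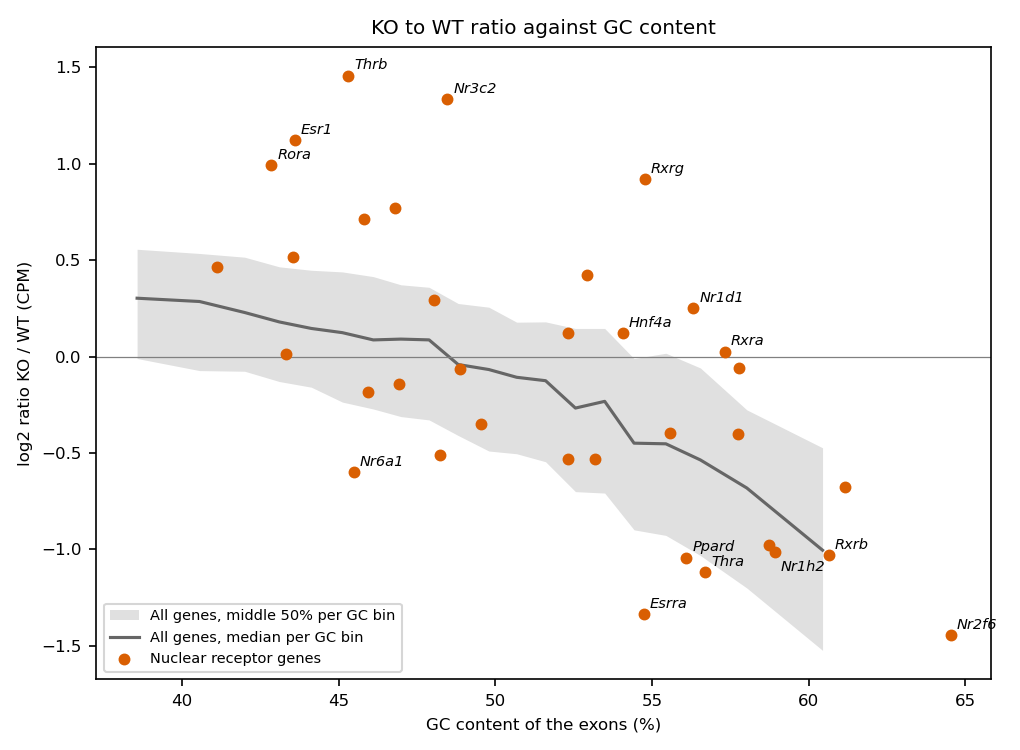
Log2 KO to WT ratio of CPM against GC content of the exons in percent. Orange points are the 35 receptors, the grey line is the median of all genes in 20 GC bins and the band their middle 50%. Nr1h2 and Rxrb lie near the line. Points above the band include Thrb, Nr3c2, Esr1, Rora, Rxrg, Nr1d1 and Rxra. Points below it include Esrra, Nr6a1, Thra, Ppard and Nr4a3.

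The contrast in base composition exists between close relatives and inside the most conserved part of the protein. The 90 coding bases around the P box, the part of the first zinc finger that reads the DNA half-site, are shown for 2 pairs of paralogues whose ratios diverged. The capitals mark the P box codons, and the sequences are coding strand from GENCODE M21 on GRCm38. Each stretch joins 2 exons. That of Thra covers chr11:98756979-98757023 and chr11:98760876-98760920 (exons 4 and 5), and that of Thrb chr14:18002584-18002628 and chr14:18008569-18008613 (exons 2 and 3). That of Ppara covers chr15:85787224-85787268 and chr15:85788979-85789023, and that of Ppard chr17:28295451-28295495 and chr17:28297086-28297130 (exons 4 and 5 in both). All 4 lie on the plus strand.
Thra: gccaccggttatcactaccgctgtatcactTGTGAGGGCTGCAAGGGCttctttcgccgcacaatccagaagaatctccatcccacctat
Thrb: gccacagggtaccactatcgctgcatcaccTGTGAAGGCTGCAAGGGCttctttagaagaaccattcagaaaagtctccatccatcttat
Ppara: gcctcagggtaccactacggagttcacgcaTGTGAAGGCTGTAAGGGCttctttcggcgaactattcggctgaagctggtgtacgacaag
Ppard: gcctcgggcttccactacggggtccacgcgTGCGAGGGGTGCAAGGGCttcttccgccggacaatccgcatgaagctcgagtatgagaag
The Thra and Thrb stretches differed at 18 of 90 bases, 14 of them at the third base of a codon, and had 53.3% and 47.8% GC. Those of Ppara and Ppard differed at 21 bases, 18 of them at the third base, with 54.4% and 63.3% GC. Over the whole coding sequence, the third bases of codons were 71.1% GC in Thra and 58.9% in Thrb, and 66.2% in Ppara and 82.5% in Ppard. In both pairs the receptor richer in GC was the one lower in KO, but the pairs were picked for their divergent ratios. Nr3c1 and Nr3c2, which diverged further than Ppara and Ppard, went the other way, and the count over all pairs is given further on.

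Among the thyroid hormone and retinoic acid receptors, 1 gene was higher in KO and 3 were lower by 1.5-fold or more. Thrb (chr14:17660261-18038090), the main thyroid hormone receptor of hepatocytes, had 79 reads (3.98 CPM) in WT and 172 (10.9 CPM) in KO. Its ratio was 2.75 (interval 2.09 to 3.63), and 2.64 after the correction. Thra (chr11:98740638-98769006), which encodes the other thyroid hormone receptor, had 227 and 83 reads (11.4 and 5.27 CPM). It was 2.17-fold lower (1.68 to 2.82), or 1.37-fold lower after the correction. Thra thus held 74.2% of the pair's reads in WT (68.9% to 79.0%) and 32.5% in KO (26.8% to 38.7%), a share that does not depend on library scaling. Per exon length, the pair's order turned as well, with 2.48 and 0.537 FPKM in WT for Thra and Thrb and 1.14 and 1.48 in KO. The exons of Thra overlap those of Nr1d1 on the opposite strand over 263 bases, 5.70% of the exons of Thra, and whether the counting separated strands is not stated in the labels.

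The retinoic acid receptor genes were lower or close to equal. Rara, the most abundant, had 626 and 311 reads (31.5 and 19.7 CPM) and was 1.60-fold lower (1.39 to 1.83). Rarg had 184 and 74 reads and was 1.97-fold lower (1.497 to 2.62). Both have GC-rich exons, and after the correction their log2 ratios of -0.67 and -0.98 became 0.31 and 0.00. With GC content alone they became 0.33 and -0.31, so the value for Rarg depended on the form of the correction. Rarb, itself induced by retinoic acid, had 33 and 25 reads and a ratio of 0.955 (0.545 to 1.66), or 0.956 after the correction. It shares 34.1% of its exons with Top2b on the opposite strand. The division of reads among the 3 differed little, with 74.3% for Rara in WT (71.2% to 77.2%) and 75.9% in KO (71.4% to 79.9%).

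RXRs are the shared partners of many of these receptors, and their genes differed from each other. Rxra, the main hepatic form, had 2277 reads in WT and 1838 in KO (114.6 and 116.7 CPM), a ratio of 1.02 (0.957 to 1.08). Rxrb (chr17:34031812-34038399) had 1230 and 478 reads (61.9 and 30.3 CPM) and was 2.04-fold lower (1.83 to 2.27). Rxrg, low in liver, had 22 and 33 reads (1.11 and 2.10 CPM), a ratio of 1.89 (1.07 to 3.41), or 1.96 after the correction. Of all RXR reads, Rxra held 64.5% in WT (62.9% to 66.1%) and 78.2% in KO (76.5% to 79.9%), and Rxrb 34.9% and 20.3%. Rxra exons have 57.3% GC and those of Rxrb 60.6%. After the correction Rxra was 2.40-fold higher and Rxrb 1.03-fold lower. The value for Rxra depended on the form of the correction, since with GC content alone it was 1.62-fold higher.

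**Figure D4:**
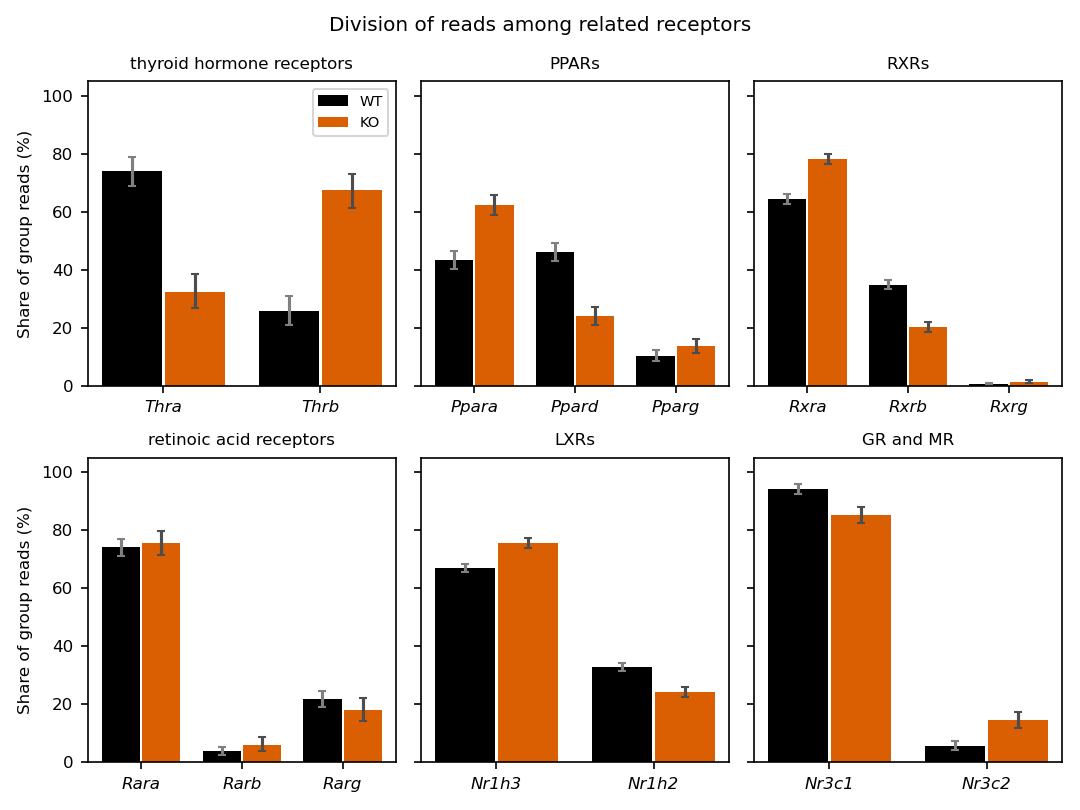
Share of each receptor in the reads of its group of related receptors, in percent, for WT (black) and KO (orange), with 95% Clopper-Pearson intervals of counting error. Thra and Thrb exchange places between the libraries, Ppard and Rxrb hold smaller shares in KO, and the retinoic acid receptors divide their reads alike in both.

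The receptors for fatty acids, oxysterols and bile acids split in the same manner. Ppara, which drives fatty acid oxidation in hepatocytes, had 467 and 496 reads (23.5 and 31.5 CPM), a ratio of 1.34 (1.18 to 1.52), or 1.42 after the correction. Ppard (chr17:28232700-28301474), a fatty acid receptor present in most tissues, had 496 and 191 reads (24.97 and 12.1 CPM). It was 2.06-fold lower (1.74 to 2.45), or 1.11-fold lower after the correction (1.41-fold with GC content alone). Pparg, the adipogenic receptor, had 112 and 109 reads and a ratio of 1.23 (0.934 to 1.61), or 1.22 after the correction. Ppara held 43.4% of the reads of the 3 in WT and 62.3% in KO, and Ppard 46.1% and 23.995%.

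Nr1h4, which encodes the bile acid receptor FXR, had 634 reads in WT and 858 in KO (31.9 and 54.5 CPM). Its ratio was 1.71 (1.54 to 1.89), or 1.54 after the correction, so FXR RNA was higher in KO either way. The oxysterol receptor genes Nr1h3 (LXR alpha) and Nr1h2 (LXR beta) were both lower before the correction. Nr1h3 had 3300 and 1979 reads (166.1 and 125.6 CPM) and was 1.32-fold lower (1.25 to 1.40). Nr1h2 (chr7:44549616-44553951) had 1614 and 633 reads (81.2 and 40.2 CPM) and was 2.02-fold lower (1.84 to 2.22). After the correction their log2 ratios were 0.25 and -0.03. LXR alpha is abundant in macrophages as well as hepatocytes, and the macrophage markers were 2.41-fold lower in sum; their part in the values of Nr1h3 was not tested.

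The xenobiotic receptors were lower in KO by like amounts. Nr1i2 (PXR), which responds to drugs and steroids, had 1310 and 720 reads (65.9 and 45.7 CPM) and was 1.44-fold lower (1.32 to 1.58). Nr1i3 (CAR), its partner in drug response, had 377 and 207 reads (18.98 and 13.1 CPM) and was also 1.44-fold lower (1.22 to 1.72). After the correction they were 1.29-fold and 1.13-fold lower. The value for Nr1i3 is uncertain, since 74.9% of its annotated exons overlap Tomm40l on the opposite strand, which was itself 1.71-fold lower. Vdr, the vitamin D receptor, which hepatocytes express weakly, had 22 and 19 reads and a ratio of 1.09 (0.558 to 2.11), or 1.39 after the correction, so no difference was detectable at this depth.

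The 3 measured receptors of the circadian clock were higher in KO. Nr1d1 and Nr1d2 encode the REV-ERB repressors, and Rora encodes an activator that binds the same DNA element. Nr1d1 had 651 and 614 reads (32.8 and 38.98 CPM), a ratio of 1.19 (1.06 to 1.33). Nr1d2 had 313 and 343 (15.76 and 21.8 CPM), a ratio of 1.38 (1.18 to 1.62). Rora (chr9:68653786-69388246) had 291 and 460 reads (14.6 and 29.2 CPM), a ratio of 1.99 (1.72 to 2.32), just short of 2-fold. After the correction the 3 ratios were 1.41, 1.11 and 1.83. Rorb had 0 reads in WT and 1 in KO. The time of day at which livers were taken is not given in the labels.

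Factors that define hepatocytes were level or higher. Hnf4a had 8408 reads in WT and 7262 in KO (423.3 and 461.1 CPM), a ratio of 1.09 (1.06 to 1.12), which was 1.52 after the correction. Nr5a2, a regulator of bile acid synthesis that is also expressed in pancreas and intestine, had 297 and 386 reads (15.0 and 24.5 CPM). Its ratio was 1.64 (1.41 to 1.91), or 1.60 after the correction. Nr0b2 (SHP), a repressor induced by FXR that lacks a DNA-binding domain, had 142 and 108 reads (7.15 and 6.86 CPM), a ratio of 0.959 (0.740 to 1.24). The correction turned its direction, to 1.31, or to 1.53 with GC content alone. Hnf4g, the paralogue known from intestine and pancreas, had 4 and 12 reads (0.201 and 0.762 CPM), a ratio of 3.78 (1.15 to 16.1). The gut-type marker Dmbt1 had 20 and 4319 reads and the pancreatic enzyme gene Ctrb1 had 0 and 297, whereas the pancreatic genes Cpa1, Cpb1, Pnlip and Ptf1a had no read in either library. Cela1, the most abundant of the 13 pancreatic markers in KO, was lower there (521 and 328 reads). Of these 13 markers, 4 were higher and 4 lower in KO. The part of such tissue in Hnf4g and Nr5a2 was not tested. The steroidogenic receptors Nr5a1 (0 reads and 1 read) and Nr0b1 (0 in both) were at the floor.

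Steroid receptors and their relatives lay far apart. Nr3c2 (chr8:76899442-77245012), the mineralocorticoid receptor, had 46 and 92 reads (2.32 and 5.84 CPM), a ratio of 2.52 (1.75 to 3.68) that the correction left at 2.52. Nr3c1, the glucocorticoid receptor, had 775 and 541 reads (39.0 and 34.3 CPM) and was 1.14-fold lower (1.02 to 1.27), or 1.11-fold after the correction. The mineralocorticoid receptor thus held 5.60% of the pair's reads in WT (4.13% to 7.40%) and 14.5% in KO (11.9% to 17.5%). Esr1 (chr10:4611593-5005614), the oestrogen receptor of liver, had 128 and 221 reads (6.44 and 14.0 CPM), a ratio of 2.18 (1.74 to 2.73), or 1.997 after the correction. Esrra (chr19:6910977-6921813), an orphan receptor that drives mitochondrial genes, had 817 and 257 reads (41.1 and 16.3 CPM). It was 2.52-fold lower (2.19 to 2.91). After the correction it was 1.81-fold lower, the lowest corrected value of the 35 receptors. Esr2 had 2 reads and 0, Pgr 5 and 3, Esrrb 20 and 13, and Esrrg 4 and 7. For these 4 every interval of the ratio spanned 1.

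The 3 NR4A receptors are immediate early genes, transcribed within minutes of cytokine, cAMP or stress signals, and act without a classical ligand. All 3 were lower in KO before the correction. Nr4a1 had 5932 and 3576 reads (298.6 and 227.0 CPM) and was 1.32-fold lower (1.26 to 1.37). Nr4a3 had 569 and 317 reads (28.6 and 20.1 CPM) and was 1.42-fold lower (1.24 to 1.64), while Nr4a2, with 140 and 87 reads, was 1.28-fold lower (0.969 to 1.69). After the correction Nr4a1, the one with GC-rich exons (55.6%), had a log2 ratio of 0.27. Nr4a2 and Nr4a3 remained at -0.35 and -0.51. The reads were divided alike, with 89.3% for Nr4a1 in WT (88.6% to 90.1%) and 89.8% in KO (88.9% to 90.8%).

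The promoters of these 3 genes are shown because they share a feature that the choice of genes did not use. They are RefSeq windows on GRCm38.p6 from 250 bases before to 50 after the start. Capitals mark TGACG on either strand (CGTCA on the printed strand), the half-site of the cAMP response element. Nr4a1 is chr15:101266596-101266895 (plus strand), Nr4a2 chr2:57123954-57124253 (minus strand) and Nr4a3 chr4:48045055-48045354 (plus strand).
Nr4a1: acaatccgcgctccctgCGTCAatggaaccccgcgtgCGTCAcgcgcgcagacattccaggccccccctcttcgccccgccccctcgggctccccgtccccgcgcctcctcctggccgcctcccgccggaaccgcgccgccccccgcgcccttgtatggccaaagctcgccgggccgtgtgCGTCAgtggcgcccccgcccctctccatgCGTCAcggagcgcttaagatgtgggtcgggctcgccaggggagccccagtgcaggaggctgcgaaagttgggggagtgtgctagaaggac
Nr4a2: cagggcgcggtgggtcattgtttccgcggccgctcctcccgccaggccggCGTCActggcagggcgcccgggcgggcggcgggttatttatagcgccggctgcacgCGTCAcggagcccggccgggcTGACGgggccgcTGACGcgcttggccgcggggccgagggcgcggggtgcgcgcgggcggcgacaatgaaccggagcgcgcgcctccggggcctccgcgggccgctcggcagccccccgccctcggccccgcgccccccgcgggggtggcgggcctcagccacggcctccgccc
Nr4a3: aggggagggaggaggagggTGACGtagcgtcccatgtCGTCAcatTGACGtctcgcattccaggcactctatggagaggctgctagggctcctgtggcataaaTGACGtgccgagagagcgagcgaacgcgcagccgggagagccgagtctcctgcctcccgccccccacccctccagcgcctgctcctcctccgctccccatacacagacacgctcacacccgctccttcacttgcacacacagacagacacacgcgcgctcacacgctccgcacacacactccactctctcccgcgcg
Each of the 3 windows held 4 such half-sites, on 1 strand in Nr4a1 and on both in the others. Of all 32851 RefSeq promoter windows, 20.8% held at least 1 and 0.231% held 4 or more. That cutoff of 4 equals the count in the 3 windows shown. Those 3 have 64.7% to 81.7% GC and the other windows were not matched for GC content, so no excess can be read from 0.231%. The full palindrome TGACGTCA was in none of the 3 and in 1.79% of all windows. Of the 45 receptor genes, 41 had a window, and 14 of these held at least 1 half-site, 34.1% of them, against 23.0% of all genes. The receptor half-site AGGTCA on either strand was found in windows of 11 of the 41, or 26.8%, against 18.1% of all genes. In both counts a gene was included if any of its windows matched. Several receptor genes had more than 1 window, and the 32851 windows covered 27025 genes. The shares were not adjusted for the number of windows per gene, so no excess in the family can be read from them. Such matches describe letters, not bound sites.

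The remaining orphan receptors included the lowest ratio of the family. Nr2f6 (chr8:71374123-71381960), a repressor known from T cells, had 850 and 248 reads (42.8 and 15.7 CPM) and was 2.72-fold lower (2.36 to 3.14). It has the most GC-rich exons of the 35 (64.5%), and after the correction it was 1.37-fold lower. Its exons overlap those of Ocel1 on the opposite strand over 54.4% of their length, which had a 2.37-fold lower level in KO. The lower T and NK cell markers are given above, and their part in Nr2f6 was not tested. Nr2f2, a vascular and stromal receptor, had 302 and 217 reads (15.2 and 13.8 CPM), a ratio of 0.906 (0.758 to 1.08), or 0.930 after the correction. Endothelial markers were 1.45-fold lower in sum, but their median log2 ratio was -0.16, or -0.07 after the correction with 6 of 10 below 0, and 0.01 with GC content alone. Nr2f1, below the minimum level, had 26 and 9 reads and was 2.29-fold lower (1.04 to 5.56), or 1.64-fold after the correction.

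Nr6a1, known from germ cells and embryos, had 126 and 66 reads (6.34 and 4.19 CPM) and was 1.51-fold lower (1.12 to 2.07), or 1.54-fold after the correction. Its exons have a low GC content (45.5%), so it lay against the trend of its GC class. Nr2c1 had 111 and 126 reads, with a ratio of 1.43 (1.10 to 1.86) or 1.24 after the correction, and its relative Nr2c2 had 136 and 109, with a ratio of 1.01 (0.778 to 1.31) that the correction turned to 0.927. Nr2c2 shares 30.7% of its exons with Mrps25 on the opposite strand. The photoreceptor gene Nr2e3 had no read in either library, which allows up to 0.151 CPM in WT and 0.190 CPM in KO.

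Across related receptors, 19 pairs of paralogues could be compared. In 12 of the 19 the member richer in GC had the lower ratio, and in 8 of 19 after the correction. The widest pair was Thra and Thrb, whose ratios stood 5.95-fold apart, or 3.61-fold after the correction. Nr3c1 and Nr3c2 differed by 2.87-fold and by 2.79-fold after it, and there the higher one in KO, Nr3c2, was the richer in GC, by 2.53 percentage points. The ratios of Nr1i2 and Nr1i3 were nearly equal.

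Coregulators, the proteins that receptors recruit, were mostly close to equality. The 15 coactivator genes had a median log2 ratio of -0.22, or 0.04 after the correction (-0.12 with GC content alone). Of these, 1 was 2-fold lower (6.67%, against 11.8% of all genes). That gene was Ppargc1b, a partner of Esrra in mitochondrial transcription, with 86 and 28 reads, 2.44-fold lower (1.57 to 3.88). It lay at -0.62 after the correction, and it is named after its value was seen. Carm1, a methyltransferase, was 1.59-fold lower and Pprc1 1.42-fold lower, at 0.00 and 0.39 after the correction, while Ncoa4 and Ncoa6 had ratios of 1.55 and 1.29. Of 10 corepressor genes 7 were higher in KO, beside 45.5% of all genes. Tbl1xr1 and Lcor had ratios of 1.54 and 1.40, and Gps2 was 1.27-fold lower. None of 8 measured receptor chaperone genes passed 1.5-fold, with ratios from 1.25 for Hsp90aa1 and 1.19 for Hspa8 to Dnajb1, 1.30-fold lower, and Fkbp4, 1.22-fold lower.

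Enzymes and binding proteins that supply or remove ligands included 2 genes at least 2-fold lower among 11 measured (18.2%, against 11.8% of all genes). Both act in retinoid metabolism, and none of the 11 was 2-fold higher. Rdh10, which makes retinaldehyde, the precursor of retinoic acid, had 1171 and 317 reads (58.9 and 20.1 CPM) and was 2.93-fold lower (2.58 to 3.33). Cyp26a1, which degrades retinoic acid and is induced by it, had 413 and 137 reads (20.8 and 8.70 CPM) and was 2.39-fold lower (1.97 to 2.92). On the log2 scale they lay at -1.55 and -1.26, and at -1.69 and -1.16 after the correction. With GC content alone Cyp26a1 was 1.72-fold lower. Dio1, the deiodinase that activates thyroid hormone, and Fabp1, a fatty acid carrier, had ratios of 1.47 and 1.36. Of 6 measured retinoic acid targets, Cyp26a1 and Tgm2 were 2-fold lower (33.3%, against 11.8% of all genes) and Cyp26b1 2-fold higher (16.7%, against 3.28%). Cyp26b1, also a retinoic acid hydroxylase, had 147 and 285 reads and a ratio of 2.45 (1.997 to 3.004). It was 4.0-fold higher after the correction. Tgm2, a transglutaminase, was 2.14-fold lower, at -0.43 after the correction, and Dhrs3 had a ratio of 1.18.

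Before the correction, the target lists of the lipid and bile acid receptors had medians from -0.08 to 0.30. The 12 hepatocyte markers had a median log2 ratio of 0.34, or 0.19 after the correction, with 10 higher before it. Their part in these and the later target lists, and in receptors such as Nr1h4, Ppara and Thrb, was not tested. Counts of higher and lower targets here and below stand beside 45.5% of all genes higher and 54.5% lower in KO. Counts past 2-fold before the correction stand beside 3.28% of all genes higher and 11.8% lower. Of 17 measured PPARA targets 13 were higher in KO, with a median of 0.30 (0.18 after the correction), and 1 passed 2-fold. That was Cyp4a14, a fatty acid hydroxylase, with 1269 and 2259 reads and a ratio of 2.25 (2.09 to 2.41), or 1.90 after the correction. Cpt1a, the gate of mitochondrial fatty acid import, had a ratio of 1.49, whereas Acot1 was 1.83-fold and Acaa1b 1.66-fold lower. Of 10 LXR targets 6 were higher, with a median of 0.05, or 0.54 after the correction. At 1.5-fold, 3 were higher (30%, against 10.9% of all genes) and 3 lower (30%, against 24.3%) before it. After it, 3 were 2-fold higher (30%, against 3.83% of all genes) and 1 was 2-fold lower (10%, against 5.82%). With GC content alone, 1 was 2-fold higher (10%, against 4.34%) and 1 was 2-fold lower (10%, against 6.34%). Scd1, a fatty acid desaturase, had a ratio of 1.97 (1.95 to 1.99) and the sterol exporter gene Abcg5 one of 1.90 (1.69 to 2.14). Lpl, a lipase of macrophages and stroma, was 2.47-fold lower (2.17 to 2.81) and Mylip 1.63-fold lower. Of 7 measured FXR targets none passed 2-fold, with a median of -0.08. The list holds genes that FXR activates and genes that it represses, so this median does not measure FXR output. Cyp7a1, the first enzyme of bile acid synthesis, which FXR represses, was 1.53-fold lower (1.35 to 1.74), or 1.90-fold after the correction. The phospholipid exporter gene Abcb4, which FXR activates, was 1.52-fold lower (1.44 to 1.60). The bile acid transporter genes Abcb11 and Slc10a1 had ratios of 1.17 and 1.23.

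PXR and CAR targets had the highest median before the correction among the lists with 5 or more measured genes, 0.53 (0.48 after it), with 9 of 13 higher, while Nr1i2 and Nr1i3 themselves were lower. Alas1, the first enzyme of haem synthesis, had 2646 and 7055 reads (133.2 and 447.9 CPM), a ratio of 3.36 (3.22 to 3.52). Cyp2c55 had a ratio of 1.94, and Abcc2 and Por were 1.25-fold and 1.16-fold lower, though Por lay at 0.77 on the log2 scale after the correction. Of 16 HNF4A and Nr5a2 targets 11 were higher, with a median of 0.21. Apob, the structural protein of lipoprotein particles, had a ratio of 1.79 and Apoa4 one of 1.40, while the bile acid hydroxylase gene Cyp8b1 was 1.46-fold and F12 1.30-fold lower (F12 at 0.28 on the log2 scale after the correction).

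Hormone receptor and clock targets were mixed. Of 8 thyroid hormone targets 5 were higher, with a median of 0.28, or 0.57 after the correction. Me1, malic enzyme, had a ratio of 2.14 (2.02 to 2.27), or 1.93 after the correction, and Thrsp, a lipogenic factor, one of 1.81, whereas Klf9 and Nrgn were 1.59-fold and 1.39-fold lower. Of 13 glucocorticoid receptor targets 8 were lower, with a median of -0.25, or 0.00 after the correction. At 2-fold, 2 were lower (15.4%, against 11.8% of all genes) and 1 was higher (7.69%, against 3.28%). Per1 and Zbtb16 were 2.21-fold and 2.20-fold lower, at 0.09 and -0.65 after the correction, while Gadd45g and Sgk1 had ratios of 1.67 and 1.33. Mt2, a metallothionein named after its value was seen, was the 1 target past 2-fold in the other direction, with 14 and 23 reads and a ratio of 2.07 (1.02 to 4.35). Of 12 measured clock genes 7 were higher. Arntl, which REV-ERB represses and Rora activates, had 123 and 178 reads, so its ratio was 1.83 (1.44 to 2.32). Clock had a ratio of 1.37, while Cry1 was 1.38-fold lower. Of 9 measured oestrogen and oestrogen-related receptor targets 7 were higher, with Cish at 1.79 and Idh3a at 1.60; Esrra, which is in that list itself, and Igfbp1 were the 2 lower ones. Only 2 vitamin D targets were measured, Cdkn1a, 1.24-fold lower, and the intestinal gene S100g, named after its value was seen, with 1 read in WT and 43 in KO.

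**Figure D5:**
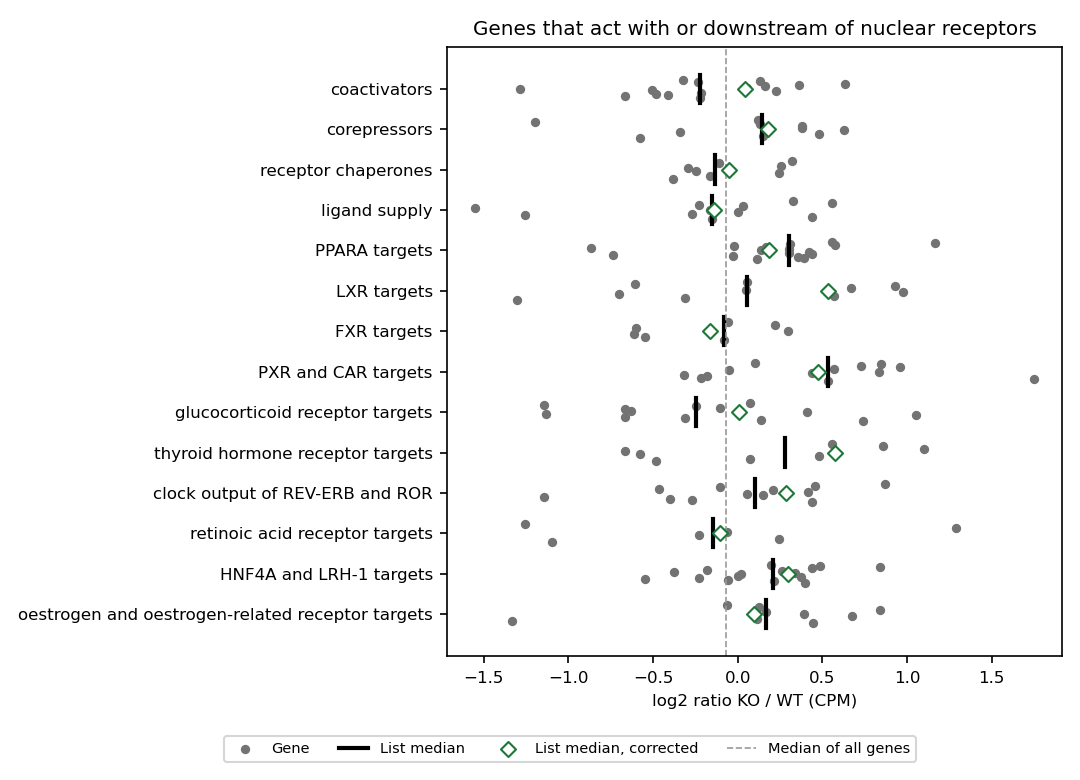
Log2 KO to WT ratio of CPM for genes that supply, assist or respond to nuclear receptors, 1 row per list with 5 or more measured genes. Grey points are genes, black bars list medians, green diamonds medians after the GC and length correction, and the dashed line the median of all genes, -0.07; the highest bar is that of PXR and CAR targets at 0.53.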

How the data were processed

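The deposited values are whole-number read counts per gene, although the authors' file names say FPKM. TopHat2, HTSeq (0.6.1) and the build GRCm38 are named in the submitters' processing notes. Which annotation, strand option and read filters applied is not given in the sources used here. Of the deposited entries, the 209 without a gene name (0.652% of reads in WT, 0.496% in KO) were left out. Groups came from the genotype labels. CPM used all 52636 Ensembl genes as the total, and FPKM was computed here from GENCODE M21 exon unions. Genes entered counts at a mean of 1 CPM. With 1 library per group, calls are a rule of size, 2-fold or 1.5-fold. The GC and length correction used genes with 100 reads or more in 10 by 4 bins, and that for GC alone 20 bins. The text names all members, the 2 highest and 2 lowest genes of each pathway list at 5 CPM or more, and markers at 0 or past 2-fold. One gene of the corepressor list is not reported here. Members and lists were chosen with earlier results of these data known. Steps were tested on simulated counts. Python 3.11.15, numpy 2.4.6, pandas 2.3.3, scipy 1.17.1 and edgeR 4.0.16 (TMM factors only) were used.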

Additional observations from a re-analysis of the deposited data

How the results depend on the processing

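Median of ratios scaling, TMM, protein-coding totals and a pseudocount of 0.5 CPM moved no receptor outside its counting interval and no count by over 1.5 times. With the GC and length correction, the receptors at least 2-fold lower went from 6 to 0 and those at least 1.5-fold lower from 9 to 2. With GC content alone they went to 0 and 2, and those at least 1.5-fold higher from 7 to 11. Rara turned from -0.67 to 0.33 with GC alone and 0.31 with length added, and Rarg from -0.98 to 0.0042 with length added. On FPKM with 1 added, which shrinks low genes, 2 were 2-fold lower, 0 were 2-fold higher and 3 were 1.5-fold higher. Without a filter, 5 were 2-fold higher. Leaving out 7 members that overlap other genes over more than 5% of their exons, an alternative chosen after seeing the data, left 4 lower and 3 higher at 2-fold. No paired analysis was possible because each group has 1 library. Differences of genes with under about 30 reads were limited by depth.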
